A study of Mus musculus with 55 samples.

Results

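The major urinary protein (Mup) genes described here are Mup1, Mup2, Mup3, Mup7, Mup10, Mup12, Mup19, Mup20 and Mup21. These 9 genes were taken by symbol from the 37620 genes quantified in the livers of 55 male mice. A total of 42 genes had a Mup symbol, of which 21 were protein-coding and 21 were pseudogenes, so that 12 coding Mup genes lie outside the 9 members. The mice belonged to 29 lines of the Collaborative Cross (CC), a panel of recombinant inbred lines derived from the wild-derived founder strains WSB/EiJ, CAST/EiJ and PWK/PhJ and the classical strains C57BL/6J, A/J, NZO/HlLtJ, NOD/ShiLtJ and 129S1/SvImJ. The founder haplotype that each line carries at the Mup genes was not analysed here. All mice were untreated, were kept on a 12-h light/dark cycle with chow at will, were 8.0 to 11.9 weeks old and weighed 12.8 to 38.0 g. A line was represented by 1 mouse in 8 lines, by 2 mice in 16 lines and by 3 mice in 5 lines. Mice are named by line and by a replicate number that only names the sample. In tests among lines, and of body weight within lines, p-values rest on the spread between the mice sampled from a line. In correlations over line means, they rest on the spread among the 29 lines instead.

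Major urinary proteins are small secreted lipocalins, barrel-shaped proteins that bind volatile pheromones and release them slowly from urine marks. The liver of adult male mice is their main source, and transcription there depends on pulsatile growth hormone, its transducer STAT5B and androgens. The genes form a tandem array in which a central set of near-identical copies is flanked by more divergent genes such as Mup3, Mup20 and Mup21. Mup20 encodes darcin, a male pheromone that attracts females.

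All 9 members lie on the minus strand of chromosome 4 in the genome build of the deposited files (NCBI37, mm9), between Mup7 at chr4:60079341-60083347 and Mup21 at chr4:61808966-61811897. The annotated interval of Mup2, chr4:60080259-60167161, overlaps that of Mup7. The other members were Mup1 at chr4:60510884-60514832, Mup10 at chr4:60591132-60595071, Mup12 at chr4:60732255-60736198, Mup19 at chr4:61439358-61443322, Mup20 at chr4:61711268-61715192 and Mup3 at chr4:61744510-61748376. The coding sequences of Mup1, Mup2, Mup7, Mup10, Mup12 and Mup19 were 98.7% to 99.6% identical to each other. Over all pairs of members, the identity was lowest between Mup3 and Mup7, at 81.6%, and Mup3 and Mup21 were 94.1% identical.

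The 9 members can be told apart in a stretch of 50 bases in coding exon 1, which is the length of 1 read end. The stretches are shown because a fragment can be assigned to a single member only through differences of this kind. They are given 5′ to 3′ on the minus strand of mm9, and capitals mark bases that differ from the majority of the 9 members.
Mup1: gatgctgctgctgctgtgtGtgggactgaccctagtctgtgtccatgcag
Mup2: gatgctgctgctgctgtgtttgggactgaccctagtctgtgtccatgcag
Mup3: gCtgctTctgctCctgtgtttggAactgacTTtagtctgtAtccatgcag
Mup7: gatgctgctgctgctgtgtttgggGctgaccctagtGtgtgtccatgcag
Mup10: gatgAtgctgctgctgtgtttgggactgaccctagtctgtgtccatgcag
Mup12: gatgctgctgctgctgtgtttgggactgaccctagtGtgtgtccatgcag
Mup19: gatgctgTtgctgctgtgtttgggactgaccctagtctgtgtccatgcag
Mup20: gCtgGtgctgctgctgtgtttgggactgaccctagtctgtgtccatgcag
Mup21: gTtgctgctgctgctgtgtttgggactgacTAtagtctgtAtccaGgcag
The stretch of Mup1 is chr4:60514667-60514716, and that of Mup10 is chr4:60594906-60594955. Mup1, Mup10 and Mup12 each differed from the majority by 1 base in this stretch, and Mup3 by 7 bases. The stretch of Mup2 was also present in Mup9 and Mup17, that of Mup7 in Mup14, and that of Mup19 in Mup13, Mup15 and Mup16.

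Fragments of most members could therefore match several genes. Windows of 50 bases were counted over 1 annotated coding transcript of each member, which was not always the isoform with the highest share. For Mup3 it was the 938-base isoform, which had the highest share in 0 of 55 mice. The share of these windows found in no other coding gene was 95.3% for Mup20, 84.1% for Mup3 and 80.9% for Mup21. It was 19.5% for Mup10, 14.6% for Mup12, 5.69% for Mup7 and 5.24% for Mup1. For Mup2 and Mup19 the share was 0%, so that every 50-base window was also present in at least 1 other Mup gene. No window of a member was shared with a coding gene outside the Mup family, and a single window was shared by up to 18 genes. RSEM divides such fragments among genes by maximum likelihood, so the split between Mup1, Mup2, Mup7, Mup10, Mup12 and Mup19, and between them and the other coding Mup genes, is less certain than the levels of Mup3, Mup20 and Mup21. The reference annotation follows C57BL/6J, and alleles of the other founders can move fragments between near-identical copies.

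The estimated fragments per mouse ranged from 20542671 to 33953036, with a median of 27700357, and Spearman's rho between this depth and the share taken by the members was 0.016 over 55 mice. Hepatocyte markers (Alb, Apoa1, Ttr, Trf, Serpina1a, Apoc3 and Cps1) summed to 32320 to 81621 FPKM. Markers of Kupffer cells summed to 9.29 to 248 FPKM, of endothelial cells to 11.5 to 60.5 FPKM, of stellate cells to 10.9 to 117 FPKM, and of cholangiocytes to 0.50 to 10.2 FPKM. Haemoglobin genes summed to 390 to 4206 FPKM. The gland markers Prol1 and Smgc were listed at 0 in every mouse, Lpo did not exceed 0.01 FPKM, and Amy1, which the liver also expresses, was 62.6 to 244 FPKM. The Y-linked genes Ddx3y, Kdm5d, Eif2s3y and Uty were detected in every mouse. Xist was at most 0.12 FPKM in all mice except IL-785 replicate 3, where it was 39.5 FPKM together with Ddx3y at 12.6 FPKM.

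Mice of IL-1052 and IL-2750 did not separate by their labels. Over 15250 genes outside the Mup family, the mouse with the highest Spearman correlation of expression was a line mate for 42 of the 47 mice with a mate. Of the 5 exceptions, 4 were in these lines. The nearest mouse to IL-1052 replicate 1 was IL-2750 replicate 3 (rho = 0.980, against 0.945 with its line mate), and the nearest to IL-2750 replicate 2 was IL-1052 replicate 2 (rho = 0.976). The fifth was IL-3912 replicate 2, whose nearest mouse was IL-3348 replicate 2 at 0.955, against 0.953 with its mate. The median share of fragments, the count of members that differed among lines, the share of variance between lines and selected correlations are given with and without IL-1052 and IL-2750. Other values include these lines, among them the SDs within lines, the counts of lines whose mates differed and the correlations with other genes.

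The 9 members together took between 1.52% and 16.1% of all fragments of a liver, with a median of 9.68% over the 55 mice. The lowest and the highest share belonged to the 2 mice of the same line, IL-2680. The 12 other coding Mup genes took between 0.571% and 16.0%, with a median of 4.61%, and the 21 pseudogenes at most 0.0017%. All Mup genes together reached between 2.50% and 28.2% of the fragments, with a median of 14.97%. The members held between 43.3% and 82.5% of the Mup fragments, with a median of 66.4%. In bulk liver, fewer cells of a type and less RNA per cell cannot be told apart. The median share of the members was 9.67% without IL-1052 and IL-2750 and 9.68% without IL-2680 and IL-4052.

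Ordered by the mean share of fragments, IL-1061 was highest at 14.4% ± 0.681 (SD, n = 2). IL-519 followed among lines with several mice at 12.4% ± 0.129 (SD, n = 2), IL-670 at 12.0% ± 1.22 (SD, n = 3), IL-1052 at 11.8% ± 0.629 (SD, n = 2) and IL-785 at 11.4% ± 1.61 (SD, n = 3). The next were IL-2750 at 11.2% ± 3.51 (SD, n = 3), IL-1513 at 11.1% ± 0.906 (SD, n = 2), IL-4052 at 10.8% ± 1.27 (SD, n = 2) and IL-3912 at 10.3% ± 1.10 (SD, n = 2). The mice of IL-1061 lay above those of all these lines except IL-2750, whose replicate 2 reached 14.9%, and each of the lines below IL-1061 in this order overlapped with the next. The middle of the order held IL-2011 at 9.74% ± 0.423 (SD, n = 2), IL-611 at 9.60% ± 1.22 (SD, n = 3), IL-4457 at 9.39% ± 0.959 (SD, n = 2), IL-72 at 9.29% ± 1.29 (SD, n = 2) and IL-3438 at 9.04% ± 0.569 (SD, n = 2). IL-2680 stood at 8.80% ± 10.3 (SD, n = 2), a mean that neither of its mice approached. The lower lines were IL-2156 at 8.02% ± 2.39 (SD, n = 3), IL-2146 at 7.90% ± 2.50 (SD, n = 2), IL-219 at 7.78% ± 0.257 (SD, n = 2), IL-3575 at 6.81% ± 2.08 (SD, n = 2), IL-3348 at 5.46% ± 1.84 (SD, n = 2) and IL-521 at 4.09% ± 0.170 (SD, n = 2). The lines with 1 mouse were IL-1141 at 12.7%, IL-1452 at 12.5%, IL-2689 at 10.96%, IL-2693 at 9.53%, IL-4141 at 6.84%, IL-4032 at 6.20%, IL-557 at 5.72% and IL-2126 at 2.60%. Their 95% Wilson intervals were at most 0.0287 percentage points wide and covered counting error only. Of the 28 pairs of neighbours in the order, 22 overlapped, including all 15 pairs in which both lines had at least 2 mice.

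**Figure D1:**
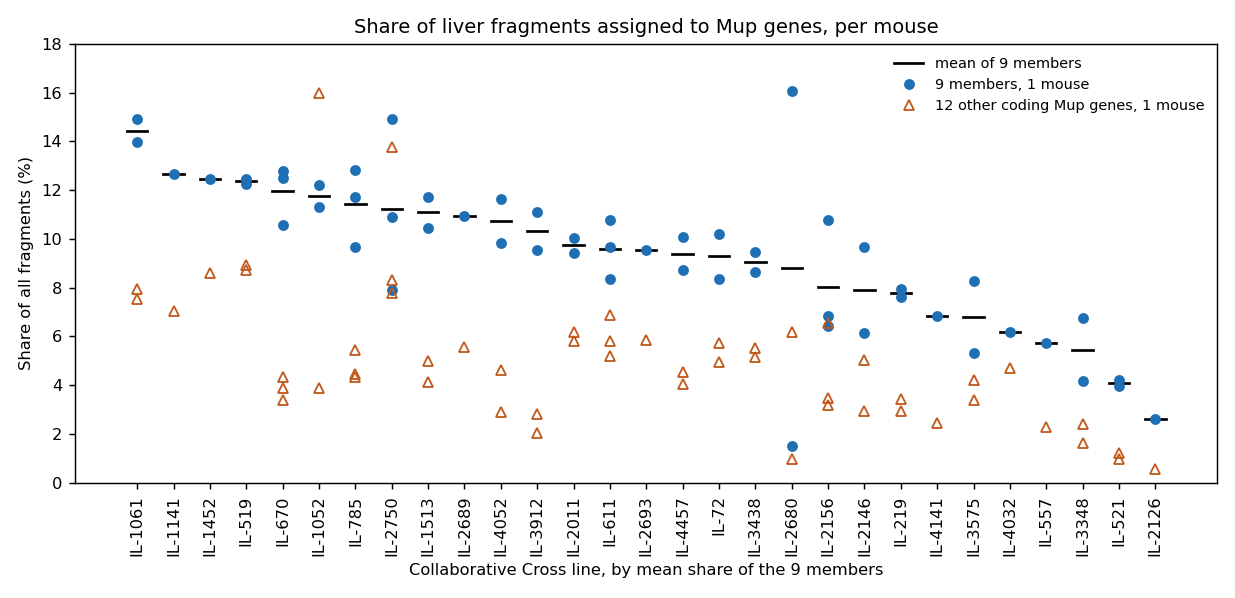
Share of all estimated fragments (%) in each mouse, for the 9 members (filled circles) and for the 12 other coding Mup genes (open triangles), with lines ordered by the mean of the members (bar). IL-2680 held the lowest (1.52%) and the highest (16.1%) mouse, and IL-2126, with 1 mouse, had the lowest line mean (2.60%).

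Levels per transcript length (FPKM, fragments scaled by transcript length and library size) differed widely among the members. Mup7, Mup19, Mup1 and Mup10 had the highest medians over the 55 mice, at 26419, 17013, 11172 and 10433 FPKM, followed by Mup3 at 7480 FPKM, Mup2 at 3151 FPKM, Mup20 at 1163 FPKM, Mup12 at 775 FPKM and Mup21 at 253 FPKM. Medians hid large ranges, and a different member led in different mice. Mup1 was the member with the highest FPKM in 27 mice, Mup19 in 20, Mup7 in 6 and Mup12 in 2.

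Mup1 ranged from 19.9 to 80050 FPKM. It was highest in IL-1061 (73393 and 80050 FPKM) and IL-670 (70151, 60873 and 70835 FPKM), and low in IL-1141 (158 FPKM), IL-4032 (256 FPKM), IL-72 (218 and 407 FPKM) and IL-1513 (339 and 294 FPKM). The lowest mouse of all was IL-2680 replicate 1.

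Mup2 followed Mup1, with 11.1 to 18563 FPKM over all mice, and was highest in IL-670 (16532 ± 2022 FPKM, SD, n = 3) and lowest in IL-4032 (16.9 FPKM in 1 mouse) and IL-72 (57.4 ± 10.4 FPKM, SD, n = 2). None of its 50-base windows was unique, and 94.8% of those of Mup1 were shared with other Mup genes.

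Mup10 fell into separate ranges. It was between 13.1 and 150 FPKM in 17 mice and between 8418 and 33538 FPKM in 38 mice, with no mouse in the 56.2-fold gap between them. All mice of a line were on the same side of this gap except in IL-1052, IL-2750 and IL-4052. Lines in the low range without exception were IL-1141, IL-1513, IL-2146, IL-2680, IL-4032, IL-72 and IL-785. In IL-1513, for example, Mup10 was 17.2 and 33.9 FPKM, and in IL-1061 it was 27456 and 28139 FPKM.

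Mup12 went the other way across lines. Its lowest mouse was at 70.2 FPKM and its highest at 46489 FPKM, with line means of 32672 ± 19540 FPKM (SD, n = 2) in IL-2146, 28799 ± 7553 FPKM (SD, n = 3) in IL-785 and 24897 ± 1355 FPKM (SD, n = 2) in IL-1513. It was 114 ± 8.78 FPKM (SD, n = 2) in IL-1061 and 113 ± 14.0 FPKM (SD, n = 2) in IL-219. The coding sequences of Mup1 and Mup12 are 99.6% identical, and those of Mup10 and Mup12 99.1%.

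**Figure D2:**
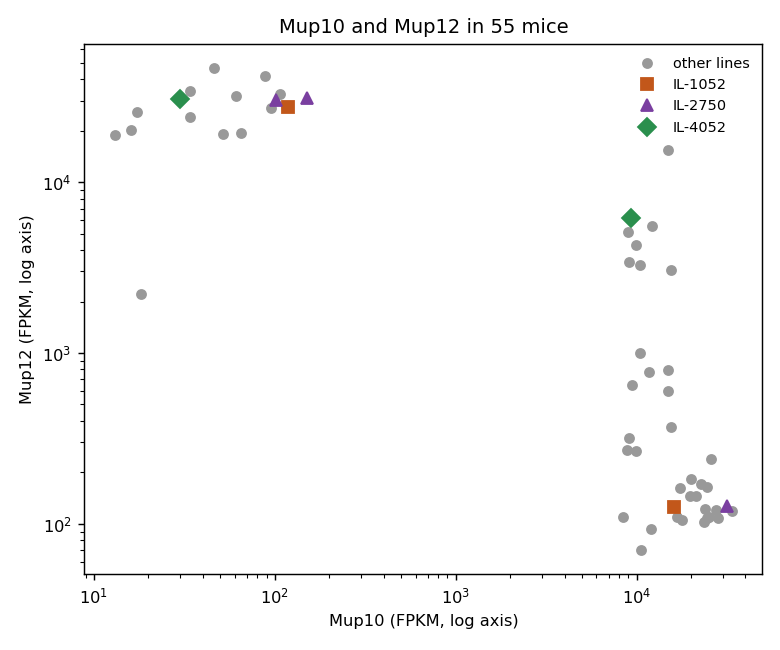
Mup12 against Mup10 (FPKM, both axes logarithmic) in each of the 55 mice, with the lines IL-1052, IL-2750 and IL-4052 marked. No mouse lies between 150 and 8418 FPKM of Mup10, and each of the 3 marked lines has mice on both sides.

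Mup19 was highest in IL-1141 (73019 FPKM, 1 mouse), IL-519 (69742.9 ± 156 FPKM, SD, n = 2) and IL-785 (62207 ± 2778 FPKM, SD, n = 3). It was 1133 ± 690 FPKM (SD, n = 2) in IL-2011, and in IL-611 it was 344 and 120 FPKM in 2 mice and 11528 FPKM in the third. The 3 mice of IL-611 did not split in this way for Mup1, which was 45562, 49852 and 53536 FPKM.

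Mup7 was 137 FPKM in IL-2126 replicate 1 and at least 1062 FPKM in every other mouse. Next lowest were the mice of IL-219 at 1062 and 1210 FPKM, followed by 2462 FPKM in IL-2680 replicate 1. The highest line means were 44106 ± 1972 FPKM (SD, n = 2) in IL-519, while IL-2689, with 1 mouse, had 43991 FPKM. In IL-219, Mup1 was 32079 and 36955 FPKM and Mup10 23462 and 23925 FPKM, while Mup12 (113 FPKM) and Mup21 (37.1 FPKM) were, like Mup7, among the lowest line means.

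Mup20, which encodes darcin and had 95.3% unique windows, was nearly absent from 4 lines. It was 3.80 and 4.82 FPKM in IL-2146, 3.59 and 3.74 FPKM in IL-72, 4.19 FPKM in IL-1141 and 3.21 FPKM in IL-4032. All other mice had at least 51.5 FPKM, a gap of 10.7-fold, and no line had mice on both sides. The highest line mean was 7044 ± 93.4 FPKM (SD, n = 2) in IL-1513. Mup10 was in its low range in all 6 mice with Mup20 under 5 FPKM, whereas IL-1513 combined the highest Mup20 with the lowest mean of Mup10, 25.5 ± 11.8 FPKM (SD, n = 2).

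Mup21 ranged from 7.40 to 1845 FPKM and was highest in IL-72 (1845 and 1586 FPKM), a line in which Mup20 was under 4 FPKM. Its lowest mouse was IL-2680 replicate 1, and its lowest line means were 27.5 FPKM in IL-2126 (1 mouse) and 37.1 ± 9.57 FPKM (SD, n = 2) in IL-219.

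Mup3 was the most even member. It ranged from 3499 to 11536 FPKM, a 3.30-fold range, while the other 8 members ranged at least 249-fold. Its highest line means were 10933 ± 697 FPKM (SD, n = 2) in IL-72, 10892 ± 122 FPKM (SD, n = 2) in IL-1513 and 10877 ± 932 FPKM (SD, n = 2) in IL-4457, and IL-2126, with 1 mouse, was lowest at 4906 FPKM. On the scale of log2(FPKM + 1), the SD of Mup3 was 0.32 within lines and 0.32 among line means, against 2.05 and 3.68 for Mup10 and 1.01 and 3.26 for Mup20.

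**Figure D3:**
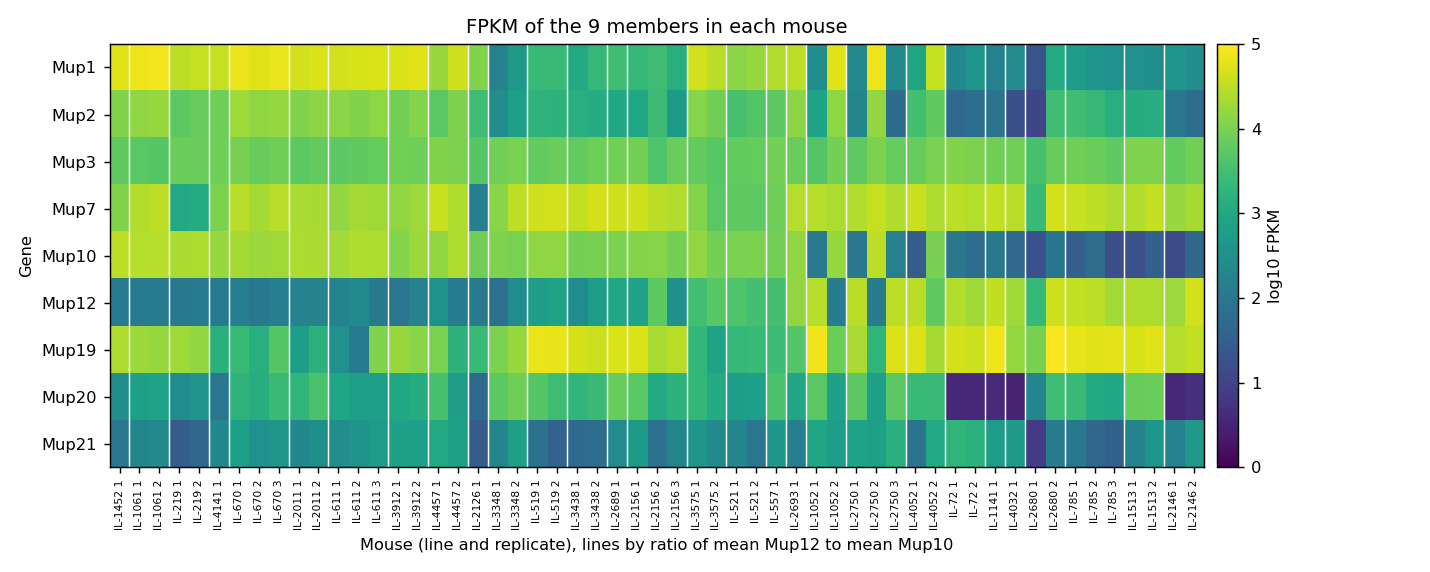
Level of each member (log10 FPKM, colour) in each of the 55 mice, with white lines between the CC lines, which are ordered by the ratio of mean Mup12 to mean Mup10. Mup3 is even across the mice, Mup10 is low in 17 mice on the right, and Mup20 is under 5 FPKM in IL-72, IL-1141, IL-4032 and IL-2146.

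Several lines showed a combination of members that their mice shared. IL-1061, IL-670, IL-2011 and IL-3912 had Mup1, Mup2 and Mup10 high with Mup12 between 92.8 and 172 FPKM. IL-785, IL-1513 and IL-72 had Mup7, Mup12 and Mup19 high, with Mup1 between 218 and 558 FPKM. In IL-519, Mup7 (42712 and 45501 FPKM), Mup10 (14900 and 14842 FPKM) and Mup19 (69853 and 69632 FPKM) were high, with Mup1 at 2357 and 2563 FPKM and Mup12 at 595 and 798 FPKM. In IL-521, Mup1 was 13360 and 16704 FPKM, Mup7 6015 and 5635 FPKM, Mup12 4291 and 3276 FPKM, and the sum of members was among the lowest of all lines.

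Across the 29 line means, Mup1 and Mup2 were the most alike pair (Spearman's rho = 0.96), followed by Mup1 and Mup10 (0.83), Mup2 and Mup10 (0.77) and Mup7 and Mup19 (0.74). The most opposed pairs were Mup10 and Mup12 (rho = -0.78) and Mup1 and Mup12 (-0.68). Mup3 and Mup21, which lie beside each other at the end of the array, had a rho of 0.56. Mup20 had rho between 0.02 and 0.35 with each of the other 8 members. These correlations are descriptions over line means that share a library total, and for the near-identical members they also share fragments that the quantification divides among them. Without IL-1052 and IL-2750, the rho of Mup10 and Mup12 was -0.78 and that of Mup1 and Mup2 was 0.95.

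The question of whether line mates resembled each other was addressed first by a test for differences among the 21 lines with at least 2 mice (47 mice). By edgeR's quasi-likelihood F test, 9 of 9 members differed among lines at an adjusted p under 0.05 over all genes, against 88.5% of the 15285 genes tested. The members therefore did not stand apart from the background in this respect. The adjusted p-values were lowest for Mup20 (1.92e-06) and Mup12 (2.42e-06) and highest for Mup3 (0.0213), all by edgeR with Benjamini-Hochberg adjustment. The count was 9 of 9 without IL-1052 and IL-2750, and 9 of 9 without IL-2680 and IL-4052. Mup3 lost the call in limma on log2(FPKM + 1) and when IL-4457 replicate 1 was left out.

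The share of variance between lines, the intraclass correlation (ICC), is 0 when line mates are no more alike than other mice and 1 when they are identical. In all 55 mice it was 0.695 for Mup10 (p = 6e-05), 0.687 for Mup20 (p = 5e-05), 0.672 for Mup21 (p = 7e-05), 0.613 for Mup2 (p = 0.00029) and 0.584 for Mup1 (p = 0.00053), each from a one-sided permutation test. It was 0.544 for Mup12 (p = 0.0014), 0.532 for Mup19 (p = 0.00187), 0.523 for Mup7 (p = 0.00213) and 0.347 for Mup3 (p = 0.0377) by the same permutation test. The summed FPKM of the members had an ICC of 0.321 (permutation p = 0.0499). A total of 10 such values were computed, with p-values from 100000 permutations of the line labels each. The median ICC of the 5949 genes kept was 0.592, so that Mup3 and the sum lay below most genes and the other 8 members lay on both sides of the median.

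The ICC of Mup1, Mup2, Mup10 and the sum changed with a few mice. Without IL-1052 and IL-2750 it was 0.887 for Mup1, 0.870 for Mup2 and 0.893 for Mup10. For the sum it was 0.366 without these lines. It was 0.638 (permutation p = 0.00027) without IL-2680 and IL-4052, and 0.672 without IL-2680 replicate 1 alone or 0.647 without IL-2680 replicate 2 alone. IL-2680 was left out after its mice were seen to hold the lowest and the highest sum. A rise of the ICC of the sum was therefore built into this choice, and the p-value carries no weight. The ICC of the sum over all 21 coding Mup genes, in which the division of fragments among near-identical copies largely cancels, was 0.434 (permutation p = 0.0104).

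**Figure D4:**
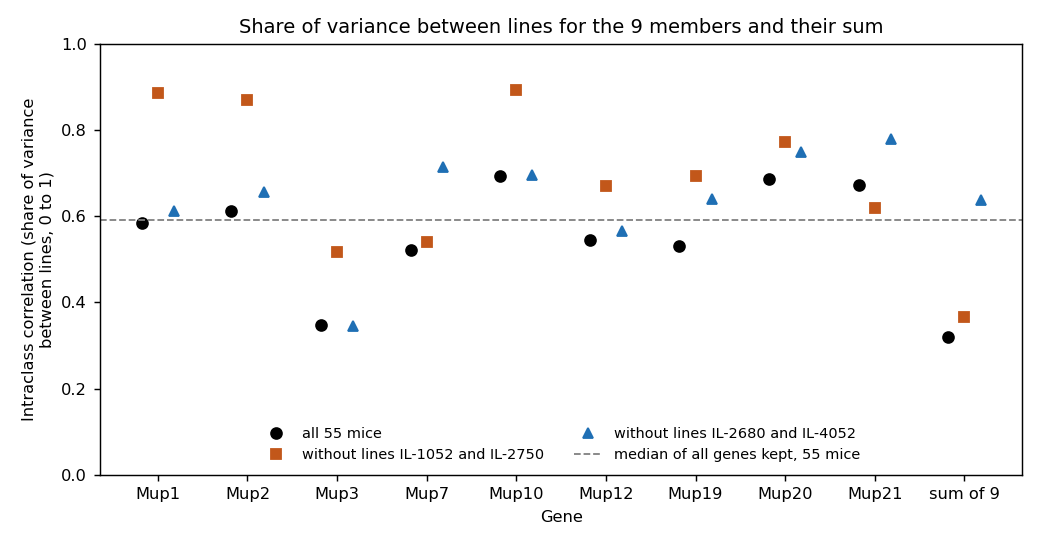
Intraclass correlation of the FPKM of each member and of their sum, in all 55 mice (circles), without IL-1052 and IL-2750 (squares) and without IL-2680 and IL-4052 (triangles), with the median of all genes kept in 55 mice (dashed line, 0.592). The sum rises from 0.321 to 0.638 without IL-2680 and IL-4052, and Mup1, Mup2 and Mup10 are above 0.85 without IL-1052 and IL-2750. The rise of the sum follows from the choice of IL-2680, whose mice held the lowest and the highest sum.

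The mice of 4 lines are given in full, IL-1052 and IL-2750 for their labels and IL-2680 and IL-4052 because they differed in many members, both chosen after their values were seen. Line mates also differed elsewhere, as in IL-611 for Mup19, and the highest and lowest mouse of a line differed by over 2-fold in 11 lines for Mup21, 10 for Mup12 and 1 for Mup3. In IL-2750, Mup1 was 221 and 250 FPKM in replicates 1 and 3 and 73600 FPKM in replicate 2, and Mup12 was 30095, 31126 and 127 FPKM in the same order. In IL-1052, Mup1 was 277 FPKM in replicate 1 and 60735 FPKM in replicate 2, and Mup12 was 27480 and 126 FPKM. Over the genes outside the Mup family, 4 of the 5 mice of these lines were nearest to a mouse of the other line, and IL-2750 replicate 1 was nearest to its line mate replicate 3.

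In IL-4052 the mice also disagreed in Mup genes, although each was the nearest mouse to the other over the genes outside the family (rho = 0.977). Mup1 was 859 FPKM in replicate 1 and 36105 FPKM in replicate 2, a 42.0-fold difference. Mup10 was 29.8 and 9346 FPKM, a 314-fold difference, and Mup21 was 83.1 and 1077.5 FPKM. Mup12 was 30476 and 6124 FPKM and Mup19 53649 and 21688 FPKM, so that replicate 1 was the higher in these members. Mup20 was 2340 and 2404 FPKM, and the sum of the members differed only from 136386 to 117944 FPKM.

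In IL-2680 the mice differed in level and in proportion. All 9 members were lower in replicate 1 than in replicate 2, by 1.95-fold for Mup3, 4.89-fold for Mup10 and between 9.21-fold and 262-fold for the other 7. Mup7 was 2462 and 44728 FPKM, Mup12 2208 and 41750 FPKM, and Mup19 9567 and 88113 FPKM. The sum was 17986 FPKM in replicate 1 and 188542 FPKM in replicate 2, which are the lowest and the highest of the 55 mice. Each was the nearest mouse to the other over the genes outside the Mup family (rho = 0.977).

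Genes whose liver expression is known to differ between the sexes also differed between these 2 mice, a comparison of 1 mouse with 1 that has no test. Of all 15285 genes tested, 36.7% were lower and 58.9% higher in replicate 1. Of 15 male-biased growth hormone targets, 14 were lower in replicate 1, whose summed level of 2121 FPKM was the lowest of the 55 mice, against 5814 FPKM in replicate 2. Serpina1e, which weighs heavily in this sum over all mice, was low in both, at 129 and 185 FPKM against a median of 4181 FPKM. Cyp4a12b, a fatty acid hydroxylase, was 1.72 against 34.0 FPKM, and Selenbp2 9.08 against 386 FPKM. All 12 female-biased genes were higher in replicate 1, with a sum of 1727 FPKM, the highest of the 55 mice, against 19.9 FPKM. Cyp3a41a alone, at 1549 against 0.22 FPKM, made up most of the female-biased sum in replicate 1, and the rank of that sum rests on it. Cyp2b9 was 68.7 against 0.12 FPKM and A1bg 28.4 against 0.08 FPKM. The Y-linked gene Ddx3y was 16.2 and 15.3 FPKM, and Xist was at most 0.06 FPKM in both. Of the 25 regulators of Mup transcription and the growth hormone pathway, 22 were higher in replicate 1, whose sum of 1149 FPKM was the highest of the 55 mice. Of the 7 hepatocyte markers, 6 were higher in replicate 1, with a sum of 75227 against 36983 FPKM, and Alb was 45105 against 15023 FPKM. All other FPKM are scaled against a library in which all Mup genes took 2.50% of fragments in replicate 1 and 22.2% in replicate 2. The members alone took 1.52% and 16.1%. The part of these genes, or of the state of these mice, in the Mup levels was not tested.

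**Figure D5:**
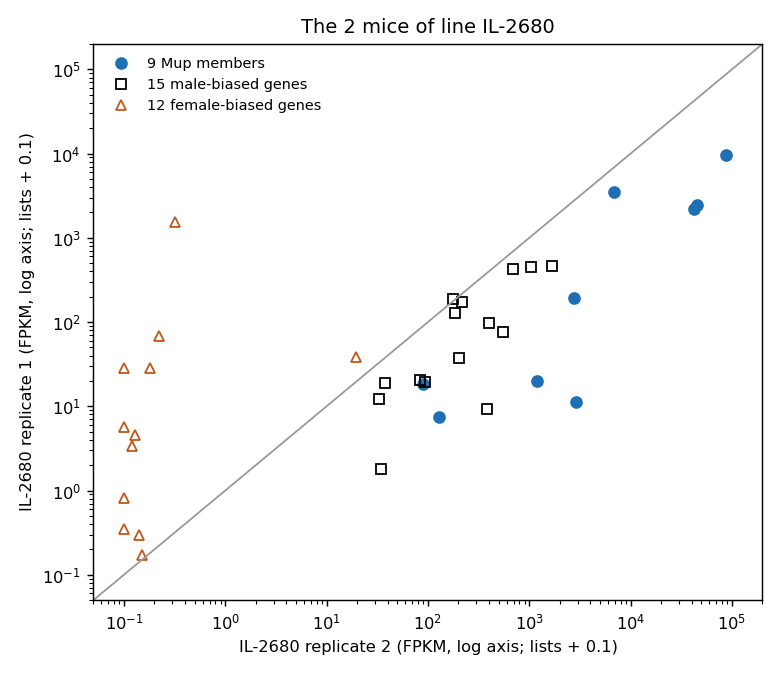
FPKM in IL-2680 replicate 1 against replicate 2 (both axes logarithmic) for the 9 members, 15 male-biased genes and 12 female-biased genes, with 0.1 added for the gene lists and a line of equality. All 9 members and 14 of the 15 male-biased genes lie below the line, and all 12 female-biased genes lie above it.

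The single mouse of IL-2126, with the lowest line mean of the members, had the next highest female-biased sum, 950 FPKM, and the fifth lowest male-biased sum, 4444 FPKM. Compared with the median of the 55 mice, 8 of the 12 female-biased genes were higher in this mouse and 2 lower. Of the 15 male-biased genes, 10 were lower and 5 higher, among them Cyp7b1 at 474 against 184 FPKM. Serpina1e, at 111 against a median of 4181 FPKM, weighed heavily in the male-biased sum. Cyp2a4 was 659 FPKM and Cyp2b9, at 170 FPKM, was the highest of all mice, whereas Cyp3a41a was 0.79 against a median of 0.64 FPKM. Of the 25 regulators, 13 were above and 12 below their medians. Cish, a feedback inhibitor of growth hormone signalling, was 36.7 FPKM, the highest of all mice, against a median of 2.27 FPKM. With 1 mouse, the line and the state of this animal cannot be told apart.

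Body weight was compared within lines, since it differed among line mates. By edgeR's quasi-likelihood test with line as a factor, 0 of 9 members changed with weight at an adjusted p under 0.05, against 0.0785% of all genes tested (12 of 15285), and 0 of 9 passed an unadjusted p of 0.05. DESeq2 and limma also called 0 members. The fitted change per gram was 0.04 ± 0.02 (log2, SE) for Mup3, the member with the lowest p (unadjusted p 0.106, edgeR adjusted p 0.702). For Mup12 it was -0.15 ± 0.15 and for Mup10 0.11 ± 0.15 (log2 per gram, SE), so that the error was as large as the change or larger. For Mup20 it was 0.10 ± 0.07 and for Mup21 0.10 ± 0.07 (log2 per gram, SE). Over the 29 line means, the summed FPKM of the members had Pearson's r of 0.017 (permutation p = 0.932) and Spearman's rho of -0.074 (permutation p = 0.699) with body weight. With age, r was -0.274 (permutation p = 0.149, adjusted over the pair of relations 0.299) and rho was -0.283 (permutation p = 0.135, adjusted 0.271), and r was -0.142 without the 2 lines farthest from the median age. For weight the adjusted values were 0.932 and 0.699, and r was 0.077 without the 2 lines farthest from the median weight.

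Among 11131 genes outside the Mup family, the line means most like the summed FPKM of the members belonged to genes at low levels. They were B430219N15Rik (Spearman's rho = 0.589 over 29 lines), Tubb2b, a beta-tubulin (0.556), 1700054O19Rik (0.546), Gm11222 (0.542) and Eif4g3, a translation initiation scaffold (0.539). Of these, Eif4g3 alone had a median line mean over 1 FPKM, at 8.91 FPKM. The most opposed genes had larger coefficients. They were Npc2, a lysosomal cholesterol carrier (-0.824), Rnf114, a ubiquitin ligase (-0.817), and Ctsh, the lysosomal protease cathepsin H (-0.793). Npc2 ranged from 10.5 to 28.2 FPKM and Ctsh from 92.4 to 196 FPKM over line means. The median rho of all 11131 genes was -0.194, and FPKM of all genes in a mouse share a total of which Mup genes took up to 28.2%.

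Known regulators and co-regulated genes were then set beside the members. Of 25 regulators of Mup transcription and the growth hormone pathway, 20 differed among lines in edgeR's test (80.0%, against 88.5% of all genes). The lowest rho with the summed FPKM was that of Jak2, the kinase of the growth hormone receptor (-0.403). Stat5b had a rho of -0.097 and ranged from 5.31 to 14.9 FPKM over mice. The median rho was -0.096 over the 24 regulators with a maximum FPKM of at least 2.

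Of the 15 male-biased growth hormone targets, 14 differed among lines (93.3%, against 88.5% of all genes), with a median rho of 0.141, against -0.194 for all genes. Serpina1e, a member of another multicopy family, had the highest rho (0.413) and C8a, a complement component, the lowest (-0.273). Of the 12 female-biased targets, 12 differed among lines. The median rho of the 11 with a maximum FPKM of at least 2 was -0.251, near that of all genes. Here Cyp3a16 was the highest (0.502) and A1bg the lowest (-0.521). Lipocalins of the liver outside the Mup family differed among lines in 9 of 9 genes tested, of 11 found in the files and 12 listed. With 88.5% of all genes called, these counts are no result about the lists. Their rho with the members lay between -0.529 for Ambp, which encodes alpha-1-microglobulin, and -0.052 for Orm3, an orosomucoid.

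Of the 57 genes outside the Mup family within 1 Mb of a member, 27 passed the expression filter, and 26 of these differed among lines (88.5% of all genes did). Over the 22 of the 27 with a maximum FPKM of at least 2, the median rho with the summed FPKM was -0.276, against -0.194 for all genes. Gm13775 had the highest rho (0.517) and ranged from 0.77 to 158 FPKM over mice. Ugcg, which encodes ceramide glucosyltransferase, had the lowest (-0.537).

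The annotated isoforms of several members also changed their shares between mice. Isoform ratios are given in percent of the gene. Mup20 and Mup21 had 1 isoform in the files. The 926-base isoform of Mup12 took between 2.06% and 99.2% of the gene and a 797-base isoform between 0.76% and 97.9%, and each was the main isoform in part of the mice (29 and 26). The 927-base isoform of Mup1 took a median of 98.7% but was below the 729-base isoform in 13 mice, and that of Mup10 a median of 99.1%, below the 797-base isoform in 16 mice. For Mup3 the 916-base isoform was the main one in all 55 mice, with 52.8% to 90.4%. At low levels of the near-identical members, these ratios rest on fragments that mostly also match other Mup genes.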

How the data were processed

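RNA of 55 livers was measured by stranded mRNA sequencing with paired ends of 50 bases. Per the methods, the authors aligned reads with Bowtie 2 to NCBI37 (mm9) with Ensembl 67 genes and quantified them with RSEM 1.2.18. The deposited expected counts are estimated fragments per gene, unnormalized, and multi-mapping fragments are divided among genes. The deposited FPKM and TPM are scaled by effective length and library, and the deposited isoform ratios are in percent.

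Expected counts were rounded and tested with edgeR 4.0.16 (TMM, default expression filter, quasi-likelihood F test, threshold 0.05 after Benjamini-Hochberg adjustment) over all genes. DESeq2 1.42.0 and limma 3.58.1 (log2(FPKM + 1), or + 0.1) served as alternatives. The ICC used van der Waerden scores of FPKM rounded to steps of max/200 (never finer than 0.5), in genes with a maximum FPKM of at least 2 and at least 12 levels. Both were tested on simulated data. Sequences came from the NCBI37 genome and GENCODE M1 coding transcripts, in windows of 50 bases. R 4.3.3 and Python 3.11.15 were used.

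Lines were taken from the labels, which name no batch. Depth was 20542671 to 33953036 fragments per mouse, so counting error was small. The members, gene lists, marker lists and rules were chosen with earlier results of these data known. Genes named are the 9 members, the 5 most and 3 least correlated genes outside the family, and in each list the genes with the highest and lowest rho, of which 1 is not reported here. Genes named in the comparison of the mice of IL-2680 and in IL-2126, with Stat5b, were chosen after their values were seen. Leaving out IL-2680 and IL-4052, and the sum over 21 coding Mup genes, were also chosen after seeing the data. Genotypes and protein sequences were not used here.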

Additional observations from a re-analysis of the deposited data

How the results depend on the processing

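The number of members that differed among lines was 8 or 9 under all alternatives. It was 8 in limma with either pseudocount (Mup3 not called), 8 in DESeq2 (Mup10 had no adjusted p), and 8 to 9 when each of the 47 mice with a line mate was left out. The number that changed with body weight was 0 under all alternatives, including each of these left-out mice. The median share of fragments was 14.97% for all Mup genes and 15.9% as a share of TPM, and 9.68% to 9.77% when each of the same 47 mice was left out. The ICC of the summed FPKM was 0.274 on log2(FPKM + 1) (permutation p = 0.134) and 0.304 with TPM (permutation p = 0.0599), and that of Mup3 was 0.309 on log2(FPKM + 1) (permutation p = 0.061). These 3 values missed the threshold of 0.05, and the cause was not tested. When each of all 55 mice was left out, the ICC of the sum ranged from 0.266 to 0.672 and missed the threshold in 43 of 55 cases, and that of Mup3 from 0.297 to 0.450, missing it in 13. The ranges were 0.499 to 0.786 for Mup1, 0.569 to 0.798 for Mup2, 0.469 to 0.705 for Mup7, 0.643 to 0.866 for Mup10, 0.517 to 0.622 for Mup12, 0.504 to 0.659 for Mup19, 0.658 to 0.768 for Mup20 and 0.631 to 0.762 for Mup21, and none of these missed it. The correlation with body weight turned sign at values near 0, with r = -0.015 without IL-1052 and IL-2750 and rho = 0.00061 without the 2 lines farthest from the median weight. Of 80 alternatives other than left-out mice, 73 kept the direction and the call. No paired analysis was possible because the labels give no replicate numbers, and those used here only name the mice of a line in order of deposition.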
